A study of Mus musculus with 2 samples.

Results

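Cell cycle and DNA replication genes were described in the embryonic mouse ureter, with and without Smad4 in its mesenchyme. They were chosen by name: 44 genes, found on each array as 60 probes of 39429 and 78 spots of 43020 once control spots were left out. By role they comprised 15 replication genes, 7 G1 and S phase cyclins and cyclin-dependent kinases (CDKs), 18 mitotic genes and 4 CDK inhibitors. A level well above background allowed a test for 42 of them, among 21238 genes tested in all. The remaining pair, Ccne2 and Aurkb, had only probes that were not well above background in any channel.

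Ureters were dissected from NMRI embryos at the stage E14.5, in mid-gestation, and their RNA was hybridised to 2 two-colour Agilent arrays. The mutants, called Smad4cKO, were Tbx18(cre/+);Smad4(fl/fl), and the controls were Tbx18(+/+);Smad4(fl/+). Cre recombinase is made from the Tbx18 locus in the mutants, so that the floxed Smad4 alleles are lost in ureteric mesenchyme and its descendants, while the urothelium keeps them. The controls also carry 1 floxed Smad4 allele but no Cre, and the mutants alone carry a Tbx18 allele with Cre, so effects of that allele and of Smad4 loss cannot be told apart. Array 1 held a female pair with Smad4cKO in green (AlexaFluor555), and array 2 a male pair with Smad4cKO in red (AlexaFluor647). Neither the number of embryos behind an RNA nor their litters are stated in the labels. The p-values thus rest on these 2 pairs and on a spread pooled over genes. They do not measure a spread between embryos or litters.

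A dividing cell first licenses its replication origins by loading the MCM helicase with the help of Cdc6 and Cdt1. D- and E-type cyclins with their kinases then carry it from G1 into S phase, where Pcna clamps the polymerases to DNA and Rrm1, Rrm2 and Tyms supply nucleotides. A- and B-type cyclins with Cdk1 carry it into mitosis, which the kinases Plk1 and Aurka, the checkpoint kinases Bub1 and Bub1b and the kinesins help to run, and from which Cdc20 and Ube2c let it exit. CDK inhibitors hold cells back, often as they leave the cycle to differentiate. In the fetal ureter the mesenchyme divides while its inner cells start to form smooth muscle. SMAD4 is the shared partner of the SMAD proteins that BMP and TGFB receptors activate, and TGFB signals are known in other tissues to act on CDK inhibitor genes.

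The replication and the mitotic genes differ in the promoter words through which they are known to be switched on in turn. E2F factors act on many replication genes before S phase, and the DREAM and MuvB complexes act on mitotic genes through a CHR element, often beside CCAAT boxes that NF-Y binds. RefSeq promoter windows (GRCm38.p6, 250 bases before to 50 after the start site) were found for 34 of the 44 genes and searched on both strands. The E2F words were TTTCCCGC, TTTCGCGC, TTTGCCGC and TTTGGCGC, the CHR word was TTTGAA and the CCAAT box was CCAAT, and no word was counted out for overlapping another. An E2F word was present in 6 of 12 replication windows, in 1 of 15 mitotic windows (6.67%) and in 2.6% of the windows' 27025 genes. The CHR word was present in 11 of 15 mitotic windows (73.3%), 2 of 12 replication windows (16.7%) and 20.2% of all genes. A CHR word and a CCAAT box stood in the same window in 11 of 15 mitotic genes (73.3%) and 2 of 12 replication genes (16.7%), against 7.97% of all genes. The CCAAT box by itself was common in both classes, in 14 of 15 mitotic genes (93.3%) and 9 of 12 replication genes (75.0%), against 41.1% of all genes. A match is a run of letters and not a site that was shown to be bound.

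The stretches that end at the base before the start site are shown for 3 mitotic and 2 replication genes, as examples of these words. They were picked for holding them and do not stand for every member, since the replication genes Mcm2 and Cdc45 hold a CHR word and no E2F word. Each is printed 5′ to 3′ on the gene's own strand, with E2F words, CHR words and CCAAT boxes (on either strand) in capitals. Cdk1 lies on the minus strand at chr10:69352913-69353053, Cdc20 on the minus strand at chr4:118437344-118437406 and Kif11 on the plus strand at chr19:37376327-37376381. The replication genes shown are Mcm5, on the plus strand at chr8:75109346-75109508, and Mcm6, on the minus strand at chr1:128359706-128359825 (all GRCm38.p6).
Cdk1: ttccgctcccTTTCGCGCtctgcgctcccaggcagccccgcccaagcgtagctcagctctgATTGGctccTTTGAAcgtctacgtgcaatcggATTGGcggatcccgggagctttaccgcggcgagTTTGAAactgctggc
Cdc20: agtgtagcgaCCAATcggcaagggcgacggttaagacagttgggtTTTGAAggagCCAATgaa
Kif11: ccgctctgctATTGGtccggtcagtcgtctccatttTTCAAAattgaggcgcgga
Mcm5: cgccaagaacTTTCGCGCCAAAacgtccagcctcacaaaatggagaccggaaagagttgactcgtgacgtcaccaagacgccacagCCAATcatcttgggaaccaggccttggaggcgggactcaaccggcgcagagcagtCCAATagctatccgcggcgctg
Mcm6: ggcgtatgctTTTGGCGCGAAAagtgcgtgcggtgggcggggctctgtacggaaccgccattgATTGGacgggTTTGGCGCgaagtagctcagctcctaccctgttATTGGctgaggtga
In these stretches Cdc20 and Kif11 hold CCAAT boxes and a CHR word and no E2F word, while Mcm5 and Mcm6 hold E2F words and CCAAT boxes and no CHR word. Cdk1 holds all 3 kinds. None of the 3 inhibitor genes with a window held an E2F or a CHR word.

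All ratios below are log2 ratios of the channel labelled Smad4cKO over the channel labelled control, so a positive value is brighter in Smad4cKO. By the dye labels, the authors' deposited table gives control over Smad4cKO, although its columns' titles put Smad4cKO first, so a reader of those titles would take the opposite direction. Smad4 gave -0.69 on array 1 and -0.14 on array 2, and Tbx18 gave 0.07 and 0.81. Neither passed the test (limma adjusted p = 1.00 for each), and which part of Smad4 is deleted is not stated in the labels, so its probe may check nothing. Id1, a BMP response gene whose induction is known to use SMAD4, gave 1.14 and 1.19, and Myh11, the smooth muscle myosin, gave 2.08 and 2.65. The direction of every ratio is thus in doubt. Smad4 was dimmer in the channel that the dye labels call Smad4cKO, whereas Id1, Myh11 and Tbx18 were brighter there. The direction of Id1 runs against those labels and with the titles. As titled, the authors' deposited table has signed folds of -2.10 and -2.42 for Id1, -4.66 and -7.30 for Myh11, -1.09 and -1.71 for Tbx18, and 1.69 and 1.07 for Smad4. The values below follow the dye labels and stand for the channels labelled Smad4cKO and control. If the titles hold instead, each sign turns, and so does each rank by sign, while errors, p-values and the number of genes with opposite signs on the arrays remain. Between 68.3% and 70.3% of spots were well above background in each channel, and 0 spots were saturated.

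No cell cycle gene passed the test, and their ratios were small. Limma called 0 of the 42 tested members at an adjusted p under 0.05 (lowest 0.756), beside 0.00471% of all tested genes, which is 1 gene. At an unadjusted p under 0.05 there was 1 member, Cdkn1a, beside 5.11% of all genes. A 1.5-fold ratio in the same direction on both arrays was reached by 0 members, beside 1.01% of all genes (0.49% brighter and 0.523% dimmer). The mean of the arrays lay between -0.38 and 0.19 over the members, with a limma SE from 0.13 to 0.30 (median 0.14, n = 2). Only Cdkn1a had a mean beyond 0.32 in size.

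How large a change these arrays leave room for is given by the intervals. The 95% interval of the mean stayed inside 1.5-fold either way for 37 of the 42 members, beside 85.2% of all tested genes. The 5 whose interval went past that size were Pcna, Mcm7, Cdk1, Cdkn1a and Cdkn1c. The median interval reached 0.35 to either side of the mean, without correction for the number of genes. After that correction much larger ratios were not called either. Myh11, with a mean of 2.37, had a limma adjusted p of 0.0656. With 2 arrays, a lack of calls among the members thus does not show that they were unchanged.

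**Figure D1:**
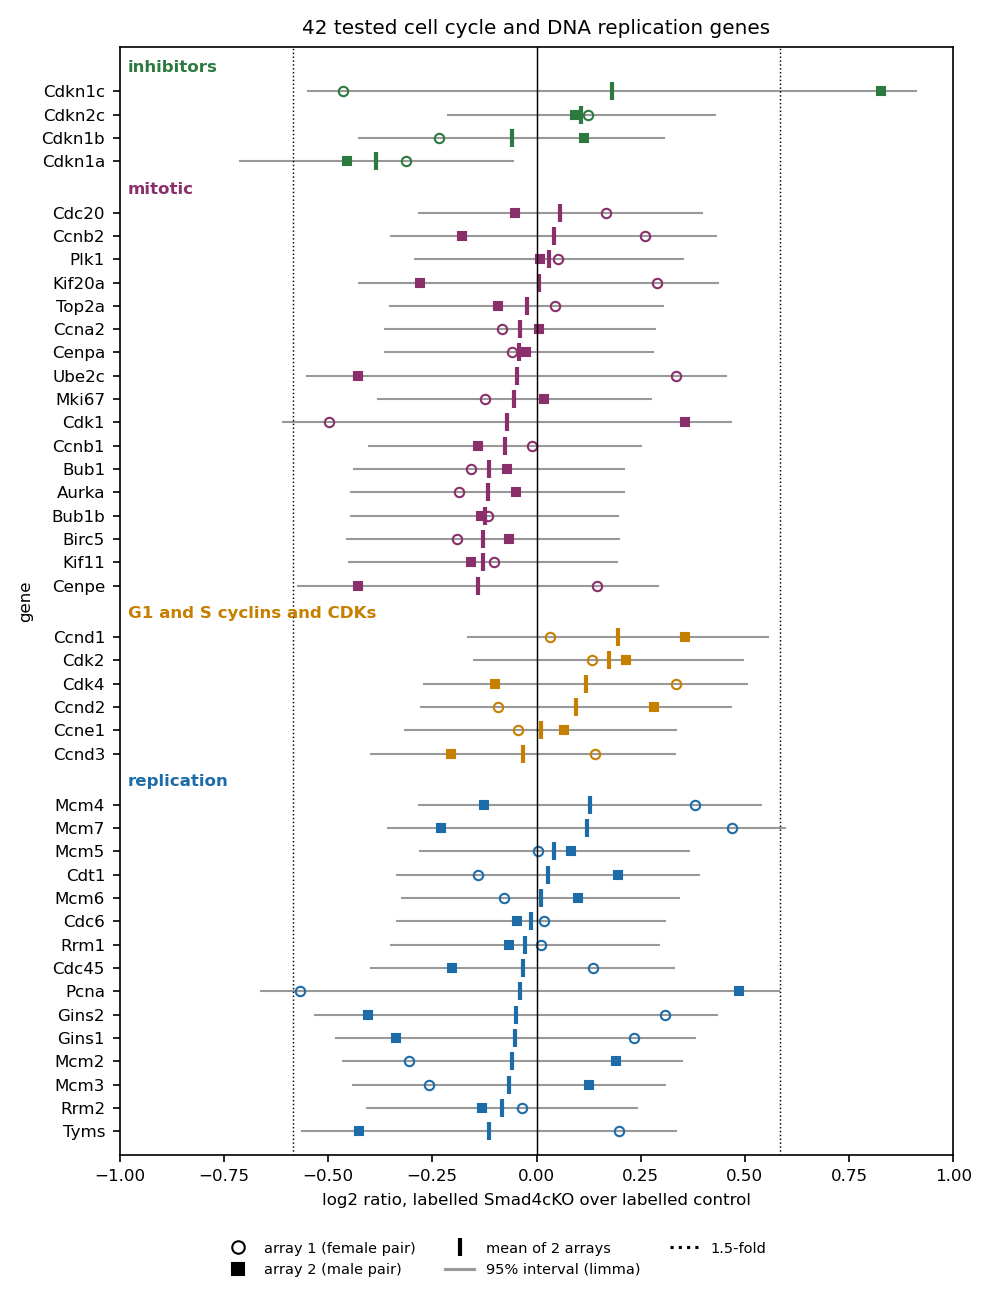
The log2 ratio of labelled Smad4cKO over labelled control is plotted for the 42 tested genes by role, with open circles for array 1, filled squares for array 2, a coloured bar for their mean and a grey line for limma's 95% interval. The means lie between -0.38 and 0.19, the circles and squares of 28 genes lie on opposite sides of 0, and the dotted lines mark 1.5-fold.

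Replication genes were measured with all 15 members, and 13 of them had opposite signs on the 2 arrays. Over all tested genes 60.3% had opposite signs, and 69.2% of those of at least median brightness. The median over these genes was 0.010 in the female pair and -0.07 in the male pair, and that of their means was -0.03, beside 0.0088, -0.0075 and 0.0047 over all tested genes. The MCM helicase genes had no common direction. Mcm2 gave -0.31 on array 1 and 0.19 on array 2, and Mcm3 gave -0.26 and 0.12. Mcm4 went the other way with 0.38 and -0.13, as did Mcm7 with 0.47 and -0.23. The subunit genes Mcm5 (0.0031 and 0.08) and Mcm6 (-0.08 and 0.10) lay closest to 0. The 6 subunits bind DNA as 1 ring, and their means ran from -0.07 for Mcm3 to 0.13 for Mcm4, each within 1 SE of 0.

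The licensing factors that load this ring were near 0 or changed sign. Cdc6 gave 0.02 and -0.05, and a second Cdc6 probe gave -0.34 and 0.22. Cdt1, whose protein is destroyed once replication starts, gave -0.14 and 0.20. The helicase activators Cdc45 (0.14 and -0.20), Gins1 (0.23 and -0.34) and Gins2 (0.31 and -0.41) were all brighter in labelled Smad4cKO on array 1 and dimmer on array 2.

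Pcna, the sliding clamp, differed most between the arrays among the replication genes. Its processed signal was 15957 in labelled Smad4cKO and 23461 in labelled control on array 1, and 25112 in labelled Smad4cKO and 18891 in labelled control on array 2. The groups overlap, and in each pair the red channel was the brighter one. The log2 ratios were -0.57 and 0.49 and their mean was -0.04 ± 0.25 (SE, n = 2, limma adjusted p = 1.00). Of the genes for nucleotide supply, the ribonucleotide reductase subunits Rrm1 (0.010 and -0.07) and Rrm2 (-0.04 and -0.13) lay near 0. Tyms, which makes thymidylate, gave 0.20 and -0.43.

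The G1 and S phase cyclins and CDKs had the highest median of the roles, 0.11 for the mean of the arrays over 6 tested genes (0.08 on array 1 and 0.14 on array 2). None passed the test, and the 2 of them that were brighter in labelled Smad4cKO on both arrays, Ccnd1 and Cdk2, each had opposite signs on the arrays under median centring. Ccnd1, the cyclin that growth signals raise in G1, had processed signals of 25987 in labelled Smad4cKO and 23401 in labelled control on array 1, and of 26986 and 23689 on array 2. Smad4cKO was the brighter channel in both pairs and the groups do not overlap. Its log2 ratio was 0.03 and 0.36 after loess, with a mean of 0.19 ± 0.15 (SE, n = 2, limma adjusted p = 1.00), which is 114% of labelled control with an interval from 89.2% to 147%. After loess the size of this mean came mostly from array 2, whereas the processed signals gave log2 ratios of 0.15 and 0.19. By the dye labels the loess mean of Ccnd1 was the highest of the 42 members. In the titles' direction it is the lowest, at 87.4% with an interval from 68.1% to 112%.

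Cdk2, the kinase of E- and A-type cyclins, was alike on both arrays, with 0.13 and 0.21 and a mean of 0.17 ± 0.13. The other D-type cyclins differed in direction, as Ccnd2 gave -0.09 and 0.28 and Ccnd3 gave 0.14 and -0.20. Ccne1, which activates Cdk2 at the start of S phase, gave -0.04 and 0.07. Cdk4, the partner of the D-type cyclins, gave 0.33 and -0.10 on its brightest probe. Ccne2 was not well above background, with processed signals between 5.85 and 7.33 in the 4 channels.

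Among the mitotic genes, 7 of 17 tested were dimmer in labelled Smad4cKO on both arrays, beside 19.8% of all genes. Of the others, 1 was brighter on both (19.9% of all genes) and 9 had opposite signs (60.3% of all genes). None passed the test, and with median centring in place of loess, which moved the medians of all genes to -0.12 and 0.12, 0 of the 17 had the same sign on both arrays. The median over the class was -0.06 on array 1, -0.07 on array 2 and -0.05 for the means. The 7 genes were small in size: their means lay between -0.13 for Kif11 and -0.04 for Cenpa, and each 95% interval included 0.

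Mki67, the antigen by which dividing cells are scored, had processed signals of 19662 in labelled Smad4cKO and 21368 in labelled control on array 1, and of 22681 and 23181 on array 2. The groups overlap, and in each genotype the arrays lay further apart than the genotypes did on either array. Its ratios of -0.12 and 0.02 gave a mean of -0.05 ± 0.13 (SE, n = 2, limma adjusted p = 1.00), or 96.4% of labelled control with an interval from 76.8% to 121%. A second Mki67 probe gave -0.09 and -0.11. Top2a, the topoisomerase that untangles chromosomes, gave 0.05 and -0.09.

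The mitotic cyclins were close to control. Ccna2 gave -0.08 and 0.0059, and Ccnb1 gave -0.01 and -0.14. Other Ccnb1 probes gave 0.21 and -0.14, and 0.12 and -0.11, so that its probes disagree in sign on array 1 and it is no longer dimmer on both arrays when they are averaged. Ccnb2 gave 0.26 and -0.18. Their kinase, Cdk1, had processed signals of 1384 in labelled Smad4cKO and 1954 in labelled control on array 1, and of 1960 and 1492 on array 2, so that the groups overlap and red was the brighter channel in both pairs. The ratios were -0.50 and 0.36 and the mean was -0.07 ± 0.22. Another Cdk1 probe, which shares 41 bases with it, gave -0.15 and 0.21, and the remaining one gave -0.14 and 0.03.

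The spindle checkpoint kinases gave similar values on both arrays. Bub1b gave -0.12 on array 1 and -0.13 on array 2. Bub1 gave -0.16 and -0.07, each the mean of 10 spots of 1 probe, whose SD within an array was 0.062 and 0.049. Every Bub1 spot but 1 lay below 0, and the 2 arrays' ranges overlap. Aurka, the spindle pole kinase, gave -0.19 and -0.05, though in the processed signals array 2 gave 5951 in labelled Smad4cKO and 5928 in labelled control. Plk1, the polo-like kinase, lay near 0 with 0.05 and 0.0094. Aurkb was not well above background, with processed signals from 14.3 to 22.2, so its level says nothing of the chromosomal passenger complex to which it and Birc5 belong.

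Birc5, the survivin gene, had 3 tested probes, of which the brightest gave -0.19 and -0.07, another gave -0.19 and -0.04 and the last gave 0.19 and -0.23. The kinesin Kif11, which pushes spindle poles apart, gave -0.10 and -0.16. Kif20a, a kinesin of cytokinesis, gave 0.29 and -0.28. The centromere genes differed, as Cenpa, the centromeric histone, gave -0.06 and -0.03 and Cenpe, a kinetochore motor, gave 0.14 and -0.43.

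The genes that end mitosis were brighter in labelled Smad4cKO on array 1 and dimmer on array 2. Cdc20, the activator of the anaphase-promoting complex, gave 0.17 and -0.05. Ube2c, its ubiquitin-conjugating enzyme, had processed signals of 27289 in labelled Smad4cKO and 21166 in labelled control on array 1, and of 22349 and 31794 on array 2. The groups overlap, and green was the brighter channel in both pairs. Its ratios were 0.33 and -0.43, and a second probe gave 0.24 and -0.20.

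**Figure D2:**
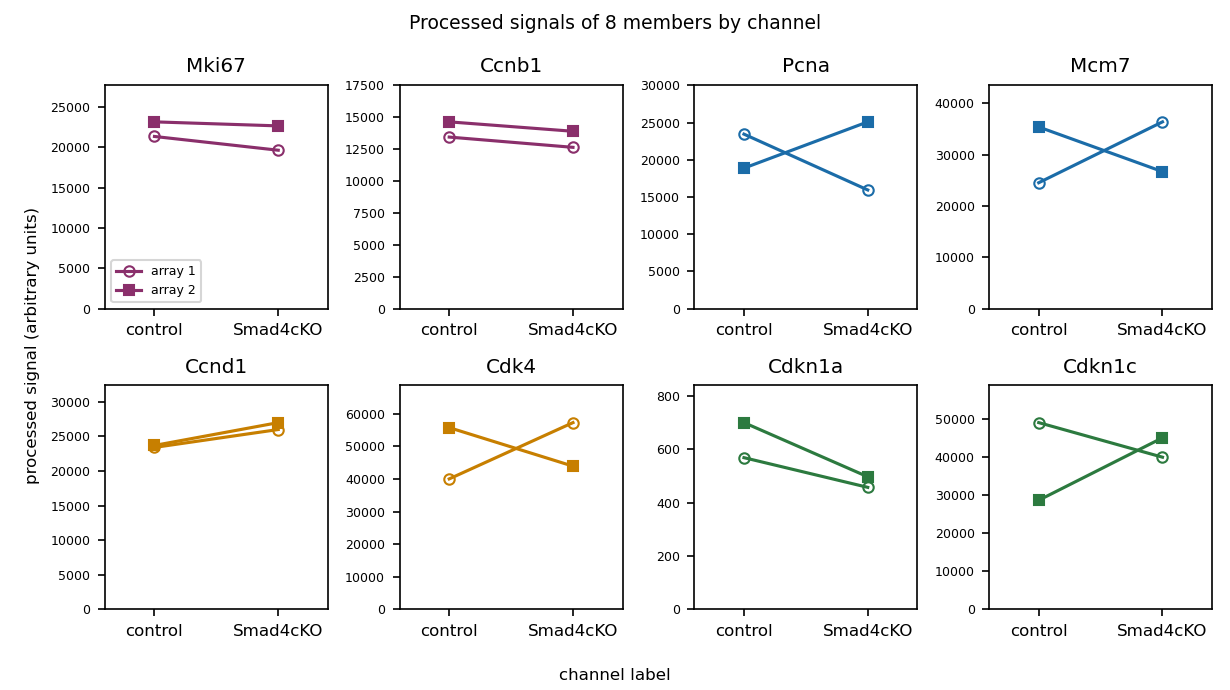
The processed signal (arbitrary units, axes from 0) in the channel labelled control and that labelled Smad4cKO is plotted for 8 genes, with open circles for array 1 and filled squares for array 2. The lines of Pcna, Mcm7, Cdk4 and Cdkn1c cross, whereas those of Mki67, Ccnb1, Ccnd1 and Cdkn1a slope the same way on both arrays, for Cdkn1a from 568 to 457 and from 699 to 496.

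The 4 CDK inhibitors went in different directions, and Cdkn1a had the lowest mean of all members by the dye labels. Cdkn1a encodes the CIP/KIP inhibitor that p53 and TGFB signals can raise. Its processed signal was 457 in labelled Smad4cKO and 568 in labelled control on array 1, and 496 and 699 on array 2, so both Smad4cKO values lie below both control values. The log2 ratios were -0.31 and -0.45, with a mean of -0.38 ± 0.13 (SE, n = 2), which is 76.6% of labelled control with a 95% interval from 61.0% to 96.2%. Turned to the titles' direction, Cdkn1a is the highest member, at 131% with an interval from 104% to 164%, and its signed fold in the authors' deposited table is 1.24 and 1.41. The unadjusted limma p was 0.0286 and the adjusted p over all genes was 0.756, so it is not called.

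Cdkn1a was printed many times on the array, which lets its measurement error be seen. Its brightest probe (chr17:29237377-29237436, mm9, plus strand) had 10 spots, of which 1 was marked as an outlier on array 1. The 9 others ran from -0.38 to -0.23 there (SD 0.041), and the 10 on array 2 ran from -0.53 to -0.38 (SD 0.043). All lay below 0, and the arrays' ranges do not overlap, though they nearly meet, at -0.382 on array 1 and -0.384 on array 2. The arrays' means of -0.31 and -0.45 lay further apart than the SD within either array. They did not lie further apart than the full range of spots within either array. Spots of 1 array share 1 RNA pair and are not replicates of the genotype.

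**Figure D3:**
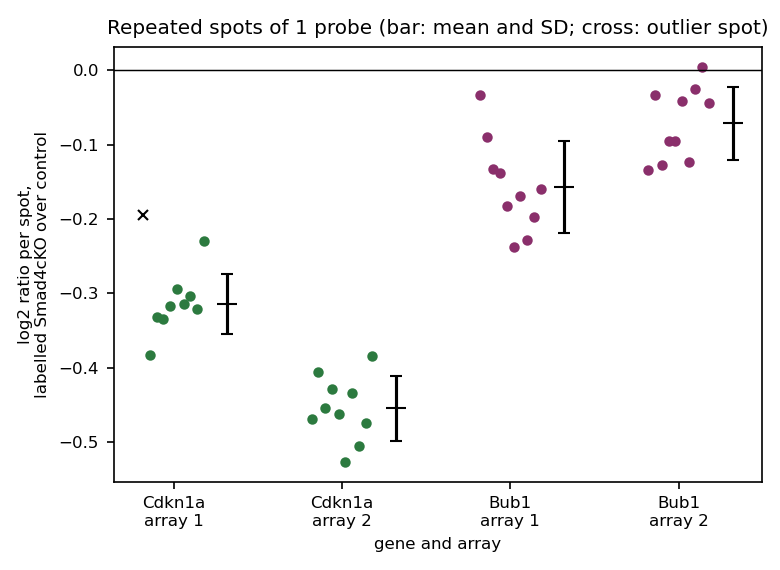
The log2 ratio of each repeated spot is plotted for 1 probe of Cdkn1a and 1 of Bub1 on each array, with the mean and SD as a bar and the spot marked as an outlier as a cross. The Cdkn1a spots centre on -0.31 on array 1 and -0.45 on array 2, and the Bub1 spots on -0.16 and -0.07.

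The other Cdkn1a probes lay near the background, which limits what they show. The probe at chr17:29235299-29235358 gave -0.34 and -0.44, with Smad4cKO not well above background on array 2, and that at chr17:29227986-29228045 gave -0.06 and -0.13 (mm9, plus strand). Their processed signals lay between 29.9 and 57.5. The first 30 bases of each probe of 60 bases are shown to tell them apart, from the brightest to the one with the smallest ratio, with C in capitals as for the Cdk4 probes further on.
Cdkn1a, brightest probe: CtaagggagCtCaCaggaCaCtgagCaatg
Cdkn1a, probe at 29235299: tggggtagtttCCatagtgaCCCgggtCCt
Cdkn1a, probe at 29227986: aatggagaCagagaCCCCagataattaagg
After loess all 3 probes were below 0 on both arrays, while the processed signals of the last were 32.7 in labelled Smad4cKO and 32.3 in labelled control on array 1. Which exon each lies in is not given in the files.

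Cdkn1c, the CIP/KIP inhibitor made from the maternal allele only, had the widest spread of all members. Its processed signal was 39997 in labelled Smad4cKO and 49084 in labelled control on array 1, and 45090 and 28682 on array 2. The groups overlap, and red was the brighter channel in both pairs. The ratios were -0.47 and 0.83 and the mean was 0.18 ± 0.30 (SE, n = 2, limma adjusted p = 1.00), with an interval from 68.4% to 188% of labelled control. On array 2 alone it passed 1.5-fold, and its error allows a change in either direction.

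The remaining inhibitors were near control. Cdkn1b, which restrains cyclin E with Cdk2, gave -0.23 and 0.11 (mean -0.06 ± 0.15), and its second probe was not well above background. Cdkn2c, an INK4 inhibitor of Cdk4 and Cdk6, gave 0.12 and 0.09 (mean 0.11 ± 0.13) and was brighter in labelled Smad4cKO in both pairs. Cdkn1a and Cdkn2c were the only members with the same sign on both arrays under median centring as well, where the other 40 had opposite signs. That setting moved the medians of all genes to -0.12 and 0.12. Genes with opposite signs past 1.5-fold on each array rose from 266 to 1440 of 21238. The count of 40 thus cannot be read as particular to the members.

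Over all members, the arrays differed from each other more than the genotypes did. Opposite signs were found for 28 of 42, beside 60.3% of all tested genes and 69.2% of genes of at least median brightness, to which 38 of the 42 belong. Opposite signs with more than 0.32 on each array were found for 4 of 42, beside 4.23% of all tested genes and 7.41% of those of at least median brightness. Of the 28, red was the brighter channel on both arrays for 12 and green for 16. The SD over members was 0.106 for the mean of the arrays. It was 0.227 for array 2 minus array 1 divided by 2, the part that turns with the dye, the sex and the RNA pair. Over genes at or above the median brightness these were 0.148 and 0.231. Dye, sex and RNA pair changed together, so they cannot be told apart.

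The ratios of the arrays ran against each other across the members and the brighter genes, and only weakly across all tested genes. Pearson's r of array 1 with array 2 was -0.64 over the 42 members (Spearman's rho -0.59). It was -0.07 over all tested genes (rho -0.20) and -0.42 over those of at least median brightness (rho -0.46). These describe genes that share the same 4 RNAs and are given without a test. In the software's own test of each spot, at p under 0.01, 3 of 78 member spots passed on array 1 (Mcm7, Pcna and Cdk4), beside 4.45% of all spots, and 2 of 78 on array 2 (Cdkn1c and Cdk4), beside 3.4%. The Cdk4 spot passed with opposite signs.

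**Figure D4:**
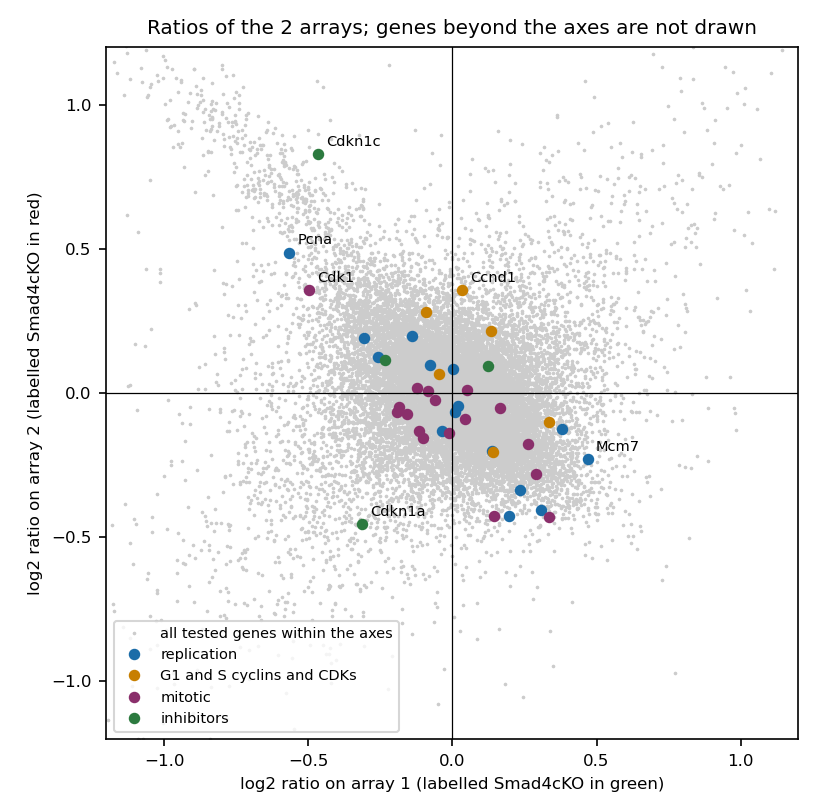
The log2 ratio on array 1 is plotted against that on array 2, in grey for the tested genes that lie within the axes and in colour for the 42 members by role. The members lie along a falling diagonal (r = -0.64), with Cdkn1c at -0.47 and 0.83, Pcna at -0.57 and 0.49 and Mcm7 at 0.47 and -0.23, while Cdkn1a lies apart at -0.31 and -0.45.

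Cdk4 shows that this sign could change between probes of 1 gene. Its 3 probes lie on the plus strand of chromosome 10 (mm9), at 126504174 to 126504233, at 126504279 to 126504338 and at 126503162 to 126503221. The first and the second are only 45 bases apart. The first gave 0.42 on array 1 and -0.28 on array 2, the second -0.27 and 0.33, and the last, the brightest, 0.33 and -0.10. The first 30 bases of each are shown to tell the probes apart, with C in capitals. Over all 60 bases they hold 18, 14 and 16 C. The stretches shown do not follow that order, since the first shows the fewest C and the second the most.
Cdk4, probe at 126504174: taCagagaatattttaagCCttaaataaCa
Cdk4, probe at 126504279: CttCttCCCtCCCtgatttataCtgggatC
Cdk4, probe at 126503162: ttggattgCCtCCagaagaCgaCtggCCtC
The means of the 3 probes lay between 0.03 and 0.12, although their values on single arrays had opposite signs.

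The number of C bases in a probe went with that turning part. Over the 57 tested member probes, Pearson's r between the number of C and array 2 minus array 1 was -0.41 (rho -0.44), and over all 26670 tested probes it was -0.26 (rho -0.31). For A, G and T, r was 0.33, -0.21 and 0.17 over the member probes, and 0.17, -0.07 and 0.11 over all tested probes. The counts of the bases in a probe depend on each other. Probes of 1 gene are not independent and all share the 2 arrays, so these are descriptions. For array 2 minus array 1 divided by 2, Ube2c, with 19 C in its brightest probe, gave -0.38, and Cdk1, with 8, gave 0.43. Other members went the opposite way, as Kif20a, with 7 C, gave -0.28 and Ccnd2, with 17, gave 0.19.

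Genes of the same pathway beyond the members gave 0 calls by limma and 0 past the 1.5-fold rule on both arrays. Of 35 other replication genes, 3 were brighter and 7 dimmer in labelled Smad4cKO on both arrays, beside 19.9% and 19.8% of all tested genes. The median of the list was -0.02. Prim2, a primase subunit, gave 0.30 and 0.22, and Dtl, which directs Cdt1 to destruction, gave -0.17 and -0.16. Slbp, which binds histone mRNA, gave 0.12 and 0.06, and Rpa1, of the single-strand binding protein, gave -0.17 and -0.16. The SD of the means was 0.08 over these genes and 0.07 over the replication members.

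Of 44 tested further mitotic genes, 2 were brighter and 12 dimmer on both arrays, beside 19.9% and 19.8% of all tested genes. The median of the list was -0.04. Ttk, the checkpoint kinase that acts upstream of Bub1, was the lowest with -0.49 and -0.33 and a mean of -0.41 ± 0.13 (SE, n = 2, limma adjusted p = 0.694). Ncapg, a condensin subunit, gave -0.22 and -0.13. On the other side Ncapd2, also of condensin, gave 0.02 and 0.0064, and Melk gave 0.0018 and 0.10.

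Of 22 tested regulators of G1 and S phase, 6 were brighter and 5 dimmer on both arrays, beside 19.9% and 19.8% of all tested genes. The median of the list was -0.0083. Cdk6, the second partner of D-type cyclins, gave 0.34 and 0.28 with a mean of 0.31 ± 0.13 (limma adjusted p = 1.00). Myc gave 0.25 and 0.18, whereas its relative Mycn gave -0.12 and -0.38. E2f2 gave -0.09 and -0.04.

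Of 16 tested other inhibitors and antiproliferative genes, 3 were brighter and 6 dimmer on both arrays, beside 19.9% and 19.8% of all tested genes. The median of the list was -0.04. Cdkn2b, the INK4 inhibitor that TGFB induces in other cells, gave 0.40 and 0.50. Its mean of 0.45 ± 0.13 (SE, n = 2, limma adjusted p = 0.571) was opposite in sign to that of Cdkn1a and did not pass the test. Gadd45g, a stress response gene, gave -0.17 and -0.50. Trp53inp1 gave 0.18 and 0.02, and Gas2l3 gave -0.20 and -0.17.

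Markers of differentiated and neighbouring cells reached larger ratios than the cell cycle genes, though limma called none of them. The directions here follow the dye labels and turn with the titles, by which smooth muscle genes are lower in Smad4cKO and neural and nephric genes higher. By the dye labels, all 7 smooth muscle markers were brighter in labelled Smad4cKO on both arrays, 6 of them past 1.5-fold, with a median of 1.59. Their summed processed signal was 30500 and 48200 in labelled Smad4cKO and 16355 and 15138 in labelled control. Of 10 neural markers, 9 were dimmer on both arrays and 4 past 1.5-fold, with a median of -0.67 and sums of 9238 and 10787 in labelled Smad4cKO and 14513 and 13788 in labelled control. Of 8 nephric markers 5 were dimmer on both arrays and 2 past 1.5-fold, with a median of -0.30 and sums of 9447 and 10133 against 13417 and 14475. Over all tested genes 19.9% were brighter and 19.8% dimmer on both arrays, and 0.49% and 0.523% were so past 1.5-fold.

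The other lists gave 0 genes past 1.5-fold on both arrays. The medians were 0.03 for the 8 markers of ureteric mesenchyme, 0.03 for 11 of urothelium, 0.18 for 7 of macrophages, 0.09 for 6 of endothelium and -0.23 for 7 of erythroid cells. A median near 0 can hide opposite directions, as the means ran from -0.74 to 0.62 over ureteric mesenchyme and from -0.45 to 0.26 over urothelium. They ran from 0.09 to 0.42 over macrophages, from 0.02 to 0.20 over endothelium and from -0.51 to 0.20 over erythroid cells. Every marker found on the array was well above background in at least 1 labelled group, those of ureteric mesenchyme and urothelium included, which the label ureter calls for. In whole ureters fewer cells of a type and less RNA per cell cannot be told apart, and the part of these cell types in the values of Cdkn1a was not tested.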

How the data were processed

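Intensities per spot and channel (mean signal, local background median and processed signal) were deposited as Agilent Feature Extraction output, version 10.7.3.1 in the submitters' processing notes. That software also gave, per the file headers, each spot's log10 ratio of red over green with its p-value, and probe positions are on build mm9. The authors' deposited table of signed folds, used as a score in an alternative, was given its direction by comparison with the processed signals. The sources used here do not name the software behind it.

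Mean signals were corrected with normexp (offset 50) and normalized within arrays by loess (limma 3.58.1, statmod 1.5.0, R 4.3.3), with control spots at weight 0 and outlier spots left out. Each probe's spots were averaged. Tests covered the 26670 probes that 1 labelled group, on array 1 and array 2 alike, held well above background, with the brightest standing for its gene. Log2 ratios turned to Smad4cKO over control were tested against 0 with lmFit and eBayes (1 residual and 4.89 prior degrees of freedom; Benjamini-Hochberg over 21238 genes). The SE therefore rests mostly on the spread pooled over genes. An exact permutation test of 2 arrays allows no p below 0.5, and none is given. The number of arrays limits the precision. The arrays shared 1 slide and 1 scan. The fit was tested on simulated data.

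All 44 members are named, and from each list of other pathway genes at most 2 per direction: those with the same sign on both arrays and the larger of the smaller ratios. Members and lists were chosen with earlier results of these data known. In all, 13 other settings were tried, 1 of them chosen after seeing the data.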

Additional observations from a re-analysis of the deposited data

Results flagged for a closer look

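In 4 genes the female pair on array 1 and the male pair on array 2 went in opposite directions, each by more than 0.32 on the log2 scale. The difference was not tested, since each sex had 1 array and the dyes were exchanged between them. For Cdkn1c the log2 ratio was -0.47 in the female pair and 0.83 in the male pair. Pcna gave -0.57 and 0.49, and Cdk1 gave -0.50 and 0.36. Ube2c alone went the other way, with 0.33 and -0.43. By the same rule 4.23% of all tested genes went in opposite directions, and 7.41% of those of at least median brightness. The signs follow the dye labels and turn with the titles.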

How the results depend on the processing

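Limma called 0 members in the main analysis and in each alternative with a test, while its calls over all genes ran from 0 with median centring to 298 brighter and 407 dimmer with an intensity trend and robust prior, where the lowest adjusted p of a member was 0.197. Cdkn1a stayed between -0.45 and -0.29 over 13 alternatives, with adjusted p from 0.197 to 1.00. The mitotic median of -0.05 was -0.0662 with the processed signals, -0.0638 with the authors' deposited table and -0.0390 when the probes of each gene were averaged. On single arrays, without a test, the medians ran from -0.0659 to 0.0103 for replication genes, from 0.0832 to 0.140 for G1 and S genes, from -0.0715 to -0.0587 for mitotic genes and from -0.274 to 0.104 for inhibitors. The count past 1.5-fold ran from 0 to 1 (Cdkn1c on array 2). Of 42 means, 1 changed sign with the processed signals, 1 with the authors' table and 0 in the other alternatives that use both arrays; the cause was not tested. Opposite signs were counted in 40 members with median centring and in 28 in the main analysis. Over all genes, opposite signs past 1.5-fold on each array were counted in 1440 and in 266. Fitting all tested probes as separate features was chosen after seeing the data and also gave 0 calls. Each ratio is already taken within a pair on 1 array, so the test against 0 uses the pairing and no further pairing was possible. Signals near background limit Ccne2, Aurkb and the dimmer Cdkn1a probes, and 2 arrays limit every value. Each sign rests on the dye labels, which the titles reverse.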
